A study of Rattus norvegicus with 111 samples.

Results

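The 200 genes described here are those whose RNA was highest in maternal relative to fetal liver of undosed rats, and they were followed as the dams received rising doses of PFO5DoA or PFO4DA. They are 200 of the 20311 genes in each count table. The rule ranked genes by the mean log2(CPM + 1), where CPM scales a gene's counts to the library total, in maternal minus fetal liver of the 11 control dams, took the largest 200 and left out 2 rows. In maternal liver the main result was a fall: at 30 mg/kg/d PFO5DoA 98 of the 200 members fell and 25 rose. Of all genes tested there, 20.3% fell and 19.5% rose. In fetal liver the same dose lowered 65 of the 169 members that could be tested and raised 31, where 16.1% of all genes tested fell and 13.8% rose. Among the members that rose in fetal liver was ENSRNOG00000006675, whose fetal mean was above its mean in control maternal liver.

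Time-mated Sprague-Dawley (Crl:CD(SD)) dams, about 11 to 12 weeks old, were dosed by mouth on gestational days 18 to 22 in a vehicle of 0.5% Tween-80, and the RNA of maternal and fetal liver was counted by TempO-Seq, in which pairs of short detector probes are ligated on their target RNA and sequenced. The libraries used came from 55 dams, 55 maternal and 54 fetal. For PFO5DoA they were 5 dams at 0, 2 at 0.1, 3 at 0.3, 3 at 1 and 4 each at 3, 10 and 30 mg/kg/d, with 3 fetal libraries at 30. For PFO4DA they were 6 dams at 0 and 4 each at 0.3, 1, 3, 10, 30 and 62.5 mg/kg/d. The 0.1 mg/kg/d group was too small to test and is given by levels alone. PFO5DoA is the longer homologue of PFO4DA, both being perfluoroalkyl ether carboxylic acids with a repeated difluoromethoxy unit. The labels state that 62.5 mg/kg/d PFO5DoA dams were killed early and kept out, that 30 mg/kg/d PFO5DoA dams weighed about 17% less than controls by day 22, and that fetotoxicity was apparent in 1 dam. A high dose and low body weight cannot be told apart at that dose. The labels do not say how many fetuses a fetal library holds.

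The columns of the count tables name the dam but not the liver, so maternal and fetal were assigned from the expression values: in each dam, the library that correlated better with the 1 library known by its labels to be maternal was taken as maternal. That correlation of log2(CPM + 1) was 0.943 to 0.988 for libraries taken as maternal and 0.861 to 0.923 for those taken as fetal, with a gap of at least 0.0524 within every dam used. Any difference between the livers therefore rests on this assignment. The files give Ensembl gene IDs with no symbols, and 0 of the 20311 IDs matched the reference table, so neither the members' functions nor the livers' cell type markers could be looked up. A few members are named by ID below, and the rest are described by counts.

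Before birth the liver is in large part a blood-forming organ, and many genes of adult hepatocyte metabolism, among them cytochrome P450 enzymes, transporters and amino acid catabolic enzymes, are switched on only around or after birth. Genes much higher in maternal than in fetal liver are therefore typically those of the mature hepatocyte. Several perfluoroalkyl acids are known to activate PPARα, a nuclear receptor that controls fatty acid oxidation genes in rodent liver. Which of the 200 belong to these classes was not tested. In bulk tissue, fewer cells of a type and less RNA per cell cannot be told apart.

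The values that chose the members are given as a description. The difference was 8.66 for the first member, 3.44 at the median and 2.44 for the last member, and 2.43 for the first gene outside. In control livers the members' mean level ran from 5.54 to 21203 CPM in maternal liver, with a median of 114. The fetal median was 6.17 CPM, and 50 members were under 1 CPM there while 88 were at 10 CPM or more. Of the 200, 194 were higher in the maternal library of every control dam. The members varied between control dams more than genes at large: among genes of at least 5 CPM, the median SD of log2 levels was 0.51 for members and 0.34 for all genes in maternal PFO5DoA controls, and 0.34 and 0.21 in maternal PFO4DA controls.

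PFO5DoA lowered many of these genes in maternal liver, and more were called at each higher dose. At 30 mg/kg/d, 123 of 200 passed an adjusted p of 0.05 in edgeR's quasi-likelihood test, 25 higher and 98 lower, or 61.5%, where 39.8% of all 10615 genes tested were called, 19.5% higher and 20.3% lower. The median log2 fold change of the members was −0.86, against −0.07 for all genes, and 84 members fell by at least 1 on the log2 scale. With 10 mg/kg/d, 15 members were called higher and 40 lower (14.0% of all genes called, 6.63% higher and 7.39% lower). With 3 mg/kg/d the counts were 8 and 13 (2.65% of all genes, 1.81% higher and 0.838% lower). With 1 mg/kg/d they were 5 and 0 (0.452%, 0.424% higher and 0.0283% lower). That last count was 0 without replicate 2 of the dose, 1 without its replicate 1, and 2, 3 and 1 without control replicates 2, 3 and 6. At 0.3 mg/kg/d edgeR called 0 members (0% of all genes), with 6 at an unadjusted p under 0.05, and DESeq2 also called 0. For unadjusted p, here and below, the share of all genes was not worked out. Among unchanged genes a fraction of about 0.05 passes that threshold by chance. The doses share their control libraries. With the 200 members chosen on the PFO4DA controls instead, so that the tested controls had no part in the choice, 124 were called at 30 mg/kg/d, 27 higher and 97 lower.

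**Figure D1:**
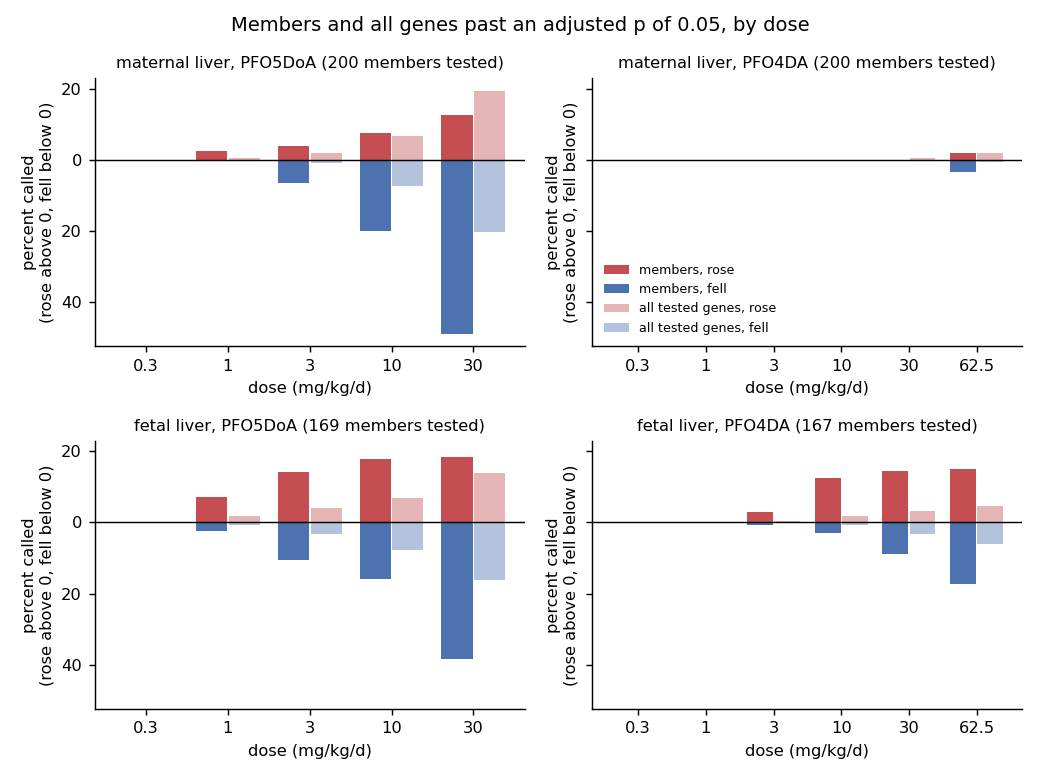
Percent of the tested members (dark bars) and of all tested genes (pale bars) past an adjusted p of 0.05, by dose in mg/kg/d, in the 4 series of maternal and fetal liver under PFO5DoA and PFO4DA; rises are drawn above 0 and falls below. In maternal liver under PFO5DoA the members' falls reach 98 of 200 at 30 mg/kg/d, well past the pale bar beside them.

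The members called at 30 mg/kg/d moved little at low doses. The 98 that fell had a median log2 fold change of −0.07 at 0.3, −0.21 at 1, −0.38 at 3, −0.72 at 10 and −1.70 at 30 mg/kg/d, and 13 of them were called at 3 and 35 at 10. The 25 that rose had medians of 0.11, 0.43, 0.61, 0.58 and 1.46 at the same doses, and 11 of them were called at 10. No member called at 30 mg/kg/d was called in the other direction at a lower dose. These medians share the control libraries and describe genes picked at the top dose.

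Falls were found at every level of maternal expression. With the members split into 4 groups of 50 by their maternal control level, 21, 24, 27 and 26 fell at 30 mg/kg/d from the lowest group to the highest. Split by the size of the maternal-to-fetal difference, 27 and 29 fell in the 2 groups of largest difference and 20 and 22 in the others. Both splits used control libraries that the falls were measured against, which favours falls where those controls were high. No conclusion is drawn from the differences between the groups. The shares of all genes that fell in such groups were not worked out. In the 30 mg/kg/d group 68 members were below and 13 above every control library in all 4 dosed libraries (34% and 6.5%), where 12.9% and 13.3% of all genes tested were. Together the members took 19.1% ± 3.53 (SD, n = 5) of all counts in control maternal liver and 15.3% ± 2.97 (n = 4) at 30 mg/kg/d, where the 4 dams had 18.0%, 17.6%, 14.1% and 11.7%. The control libraries ran from 14.6% to 24.4%, so the groups overlapped in this sum.

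**Figure D2:**
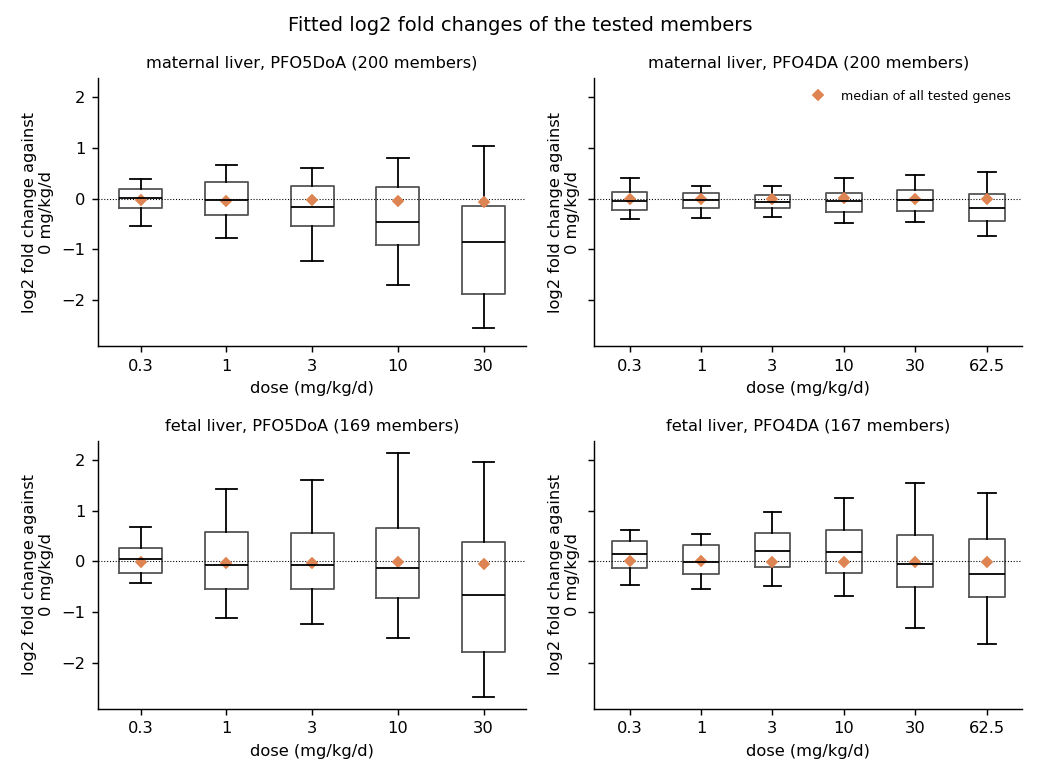
Fitted log2 fold changes of the tested members against 0 mg/kg/d, by dose in mg/kg/d; boxes span the quartiles with the median as a line, whiskers reach the 10th and 90th percentiles, and diamonds mark the median of all tested genes. The maternal PFO5DoA boxes shift down to a median of −0.86 at 30 mg/kg/d, while the diamonds stay near 0.

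ENSRNOG00000062471 had the largest rise in maternal liver. Its control libraries of the PFO5DoA series held 15.6, 16.8, 8.79, 36.7 and 12.98 CPM after TMM scaling, and the 4 libraries at 30 mg/kg/d held 4159, 3837, 3915 and 2159. The groups did not overlap, and the mean went from 18.2 ± 10.8 (SD, n = 5) to 3517 ± 916 (n = 4). The log2 fold change was 7.60 (SE 0.57, edgeR adjusted p = 4.05e-09). With 10 mg/kg/d the 4 libraries held 294, 451, 508 and 437 CPM, also all above the controls, with a log2 fold change of 4.54 (edgeR adjusted p = 2.12e-06). At 3 mg/kg/d the mean was 177 ± 131 (n = 4) and at 1 mg/kg/d 98.5 ± 35.1 (n = 3). The call at 1 mg/kg/d (edgeR adjusted p = 0.0226) was lost when replicate 1 or 2 of the dose or control replicate 1, 2 or 6 was left out (adjusted p 0.0568 to 0.131).

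ENSRNOG00000010079 had the largest fall. Its 5 control libraries ranged widely, at 52.1, 72.9, 16.3, 145 and 30.9 CPM, and the 4 libraries at 30 mg/kg/d held 0.29, 1.32, 0.40 and 0.17 CPM, from 27 counts in all. Every dosed library lay below every control. The log2 fold change was −6.75 (SE 1.02, edgeR adjusted p = 5.61e-05). The 10 mg/kg/d libraries held 32.2, 29.7, 33.8 and 52.3 CPM, inside the control range, with a log2 fold change of −0.79 that missed the threshold (edgeR adjusted p = 0.48). The groups of 10 and 30 mg/kg/d did not overlap in this gene.

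ENSRNOG00000010725 had a lower mean at each higher dose, but was called only at 10 and 30 mg/kg/d. Its control libraries held 1043, 1603, 2178, 2671 and 1107 CPM, and the 4 libraries at 30 mg/kg/d held 80.5, 90.4, 17.4 and 32.7 CPM, all below the controls. The mean went from 1720 ± 700 (SD, n = 5) to 55.2 ± 35.7 (n = 4), a log2 fold change of −4.96 (SE 0.89, edgeR adjusted p = 2.98e-04). Means in between were 1065 ± 495 at 0.3 (n = 3), 913 ± 314 at 1 (n = 3), 540 ± 657 at 3 (n = 4) and 321 ± 237 CPM at 10 mg/kg/d (n = 4). At 3 mg/kg/d 1 library held 1515 CPM and the others 78.8, 265 and 301. The call at 10 mg/kg/d (log2 fold change −2.43, edgeR adjusted p = 0.0471) was lost without control replicate 1, 2, 3, 4 or 6 or dose replicate 1, 2 or 3 (adjusted p 0.0545 to 0.108). It was also lost with no low-count filter and with the dam run as covariate (edgeR adjusted p 0.0876 and 0.0559).

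**Figure D3:**
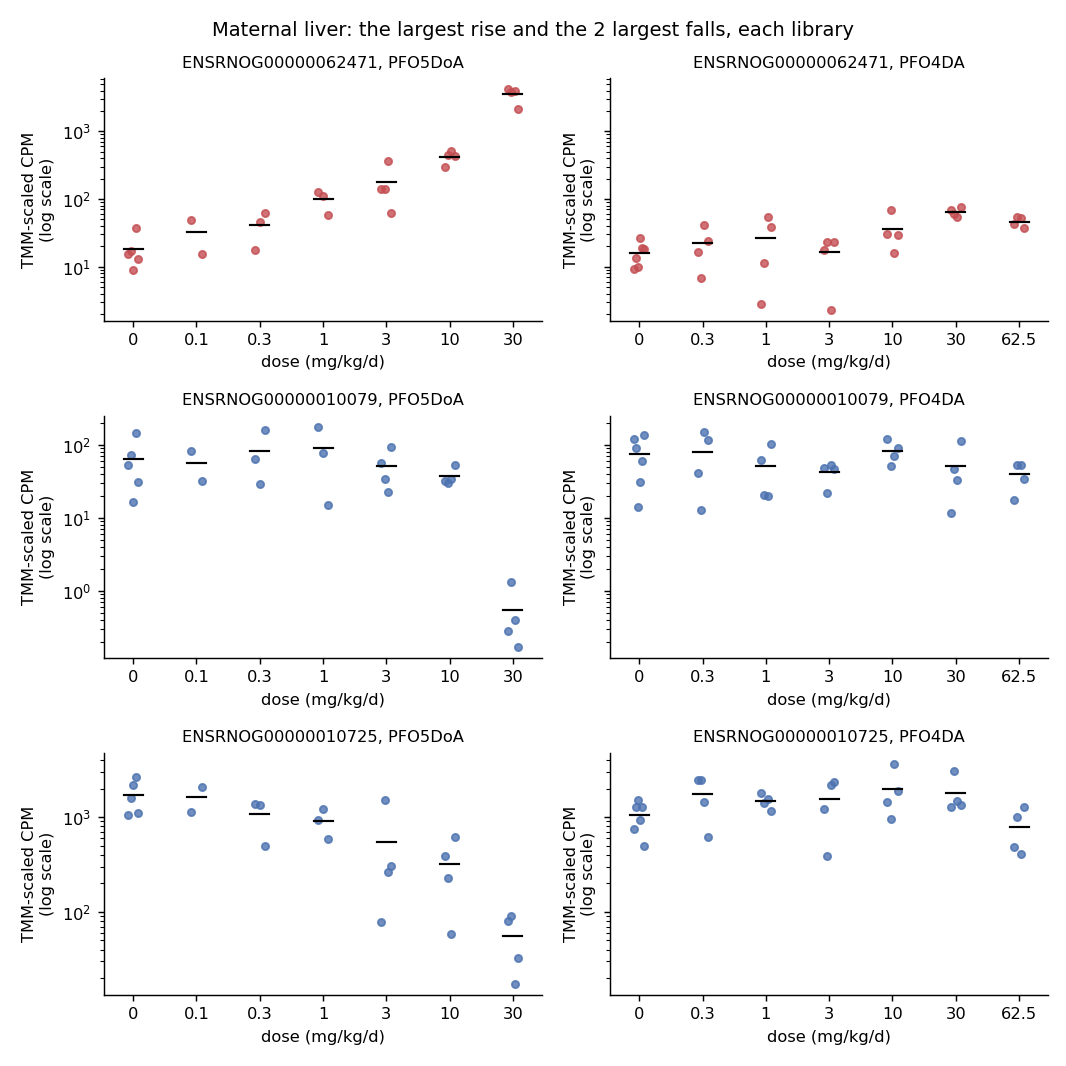
TMM-scaled CPM (log scale) of 3 members in each maternal library, by dose in mg/kg/d under PFO5DoA (left) and PFO4DA (right); points are libraries and bars are group means. ENSRNOG00000062471 climbs to 3517 CPM, and the other members drop to 0.546 and 55.2 CPM, at 30 mg/kg/d PFO5DoA, while under PFO4DA none of the 3 passed the threshold at 30 mg/kg/d.

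PFO4DA changed few of the members in maternal liver. The highest dose, 62.5 mg/kg/d, had 4 higher and 7 lower (2.46% of all 10263 genes called, 1.80% higher and 0.653% lower), with a median log2 fold change of −0.17. This count was 4 to 7 when any of the 4 dosed libraries or control replicate 1, 2 or 3 was left out. DESeq2 called 21 (1.90% of all genes). From 0.3 to 30 mg/kg/d edgeR called 0 members, where 0%, 0%, 0%, 0.00974% and 0.633% of all genes were called at 0.3, 1, 3, 10 and 30 mg/kg/d. The members at an unadjusted p under 0.05 numbered 5, 2, 4, 12 and 25 at those doses, and DESeq2 called 1 at 30 mg/kg/d and 0 at the others. At 30 mg/kg/d 1 member was called without control replicate 5. All 7 members that fell at 62.5 mg/kg/d were among the 98 that fell at 30 mg/kg/d PFO5DoA (100% of the first list and 7.14% of the second). Of the 4 that rose, 2 were among the 25 that rose there (50% and 8%). Of the 10153 genes tested in both, 1.29% rose in both and 0.355% fell in both, which for falls was 53.7% of the PFO4DA list and for rises 70.8%. The summed share of counts had a lowest of 16.6%, a median of 19.1% and a highest of 20.9% in 6 controls and was 18.3% ± 1.03 (SD, n = 4) at 62.5 mg/kg/d, inside that range.

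At matched doses the homologues differed in maternal liver, by a test of the difference between their fold changes against their own controls, which were run separately. The comparison was made at 5 doses, each adjusted over all 10951 genes tested. With 30 mg/kg/d 88 members differed (20.0% of all genes, 9.49% higher and 10.5% lower), 11 with a higher and 77 with a lower fold change under PFO5DoA, and the median difference was −0.91 log2 units against −0.06 for all genes. With 10 mg/kg/d 37 differed (8.55%, 3.94% higher and 4.60% lower), 13 higher and 24 lower, and the count was 24 without PFO4DA replicate 1 at that dose. With 3 mg/kg/d 8 differed (0.804%, 0.676% higher and 0.128% lower), 5 higher and 3 lower. At 1 mg/kg/d 2 differed (0.128%), and the count ran from 0 to 4 over the libraries left out, moving in 12 of 18 cases. At 0.3 mg/kg/d edgeR called 0 members (0%), with 8 at an unadjusted p under 0.05, and DESeq2 called 0.

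The largest rise and falls were picked on the 30 mg/kg/d PFO5DoA libraries, so a large difference from PFO4DA at that dose was favoured by the choice. For ENSRNOG00000062471 at 30 mg/kg/d the PFO4DA libraries held 68.2, 60.1, 54.5 and 76.3 CPM, and its 6 controls had a lowest of 9.19, a median of 15.8 and a highest of 26.2. Dosed libraries were above all controls there too, yet the log2 fold change of 2.01 missed the threshold (edgeR adjusted p = 0.169), and the difference from PFO5DoA was 5.59 (95% interval 3.96 to 7.22, edgeR adjusted p = 5.93e-06). For ENSRNOG00000010079 the difference was −6.18 (−8.52 to −3.85) and for ENSRNOG00000010725 −5.75 (−7.52 to −3.97), with edgeR adjusted p of 2.55e-04 and 1.40e-05. The log2 fold change of ENSRNOG00000010725 under 30 mg/kg/d PFO4DA was above 0, at 0.79, and missed the threshold (edgeR adjusted p = 0.819). At 10 mg/kg/d the difference for ENSRNOG00000010079 was −0.93 (−2.79 to 0.94, edgeR adjusted p = 0.59), an interval that leaves room for either sign.

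In fetal liver the members were partly out of reach of the test. Of the 200, 169 passed the low-count filter in the PFO5DoA series and 167 in the PFO4DA series. The 31 and 33 that did not pass had median levels of 0.164 and 0.183 CPM. Members that passed only because dosed libraries were high had to differ, so the counts below describe the tested members and not the whole set.

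Under PFO5DoA the tested members split between rises and falls. The 1 mg/kg/d group had 12 members higher and 4 lower (2.40% of all 11509 genes called, 1.74% higher and 0.660% lower). The 3 mg/kg/d group had 24 higher and 18 lower (7.08%, 3.98% higher and 3.10% lower). The 10 mg/kg/d group had 30 higher and 27 lower (14.7%, 7.0% higher and 7.68% lower). The 30 mg/kg/d group had 31 higher and 65 lower (29.9%, 13.8% higher and 16.1% lower). Without dose replicate 2 or 3 the total for 1 mg/kg/d was 9 or 10, and without control replicate 3 it was 10. Which direction had more calls was not settled at 10 mg/kg/d, where members chosen on the PFO4DA controls gave 28 higher and 29 lower, the replicate block 30 and 32, and the fit without control replicate 2 gave 27 and 29. The block gave 7 and 7 for 1 mg/kg/d. The median log2 fold change was −0.07, −0.07, −0.12 and −0.66 over these doses. At 0.3 mg/kg/d edgeR called 0 members (0.113% of all genes), with 13 at an unadjusted p under 0.05 and 1 called by DESeq2 (0.115% of all genes). The 30 mg/kg/d group held 3 fetal libraries.

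PFO4DA, with few calls in maternal liver, changed tested members in fetal liver from 3 mg/kg/d up. The 3 mg/kg/d group had 5 higher and 1 lower (0.304% of all 11172 genes called, 0.295% higher and 0.00895% lower). The 10 mg/kg/d group had 21 higher and 5 lower (2.64%, 1.95% higher and 0.689% lower). The 30 mg/kg/d group had 24 higher and 15 lower (6.44%, 3.28% higher and 3.16% lower). The 62.5 mg/kg/d group had 25 higher and 29 lower (10.6%, 4.71% higher and 5.93% lower). Without dose replicate 2 the count for 3 mg/kg/d was 3, and without replicates 2 and 3 of 10 mg/kg/d the counts there were 13 and 17. The median log2 fold change was 0.21, 0.18, −0.05 and −0.25. At 0.3 and 1 mg/kg/d edgeR called 0 members (0% of all genes at both), with 22 and 14 at an unadjusted p under 0.05, and DESeq2 called 0. Whether the response differed between the livers, or between the chemicals in fetal liver, was not tested.

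The chemicals' fetal lists overlapped, and they share no library. For 30 mg/kg/d, over 165 members tested in both, 15 rose under both, which was 50% of the 30 that rose under PFO5DoA and 62.5% of the 24 under PFO4DA. All 15 that fell under PFO4DA fell under PFO5DoA, where they made up 23.8% of the 63 falls, and 1 member rose under PFO4DA and fell under PFO5DoA. Over all 11101 genes tested in both, the shared rises were 13.7% and 57.5% of the lists (1.89% of genes) and the shared falls 13.7% and 72.1% (2.28%), with 0.225% called in opposite directions. Between 3 mg/kg/d of PFO5DoA and 30 of PFO4DA, which are unlike doses, 19 rose under both (82.6% and 79.2% of the lists), 12 fell under both (66.7% and 80%) and 0 went in opposite directions. Over all genes these shares were 57.9% and 70.1% for rises (2.31% of genes) and 51.4% and 51.9% for falls (1.64%), also with 0 in opposite directions.

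Fetal falls were most numerous among members with more RNA in fetal liver. With the members split into 4 groups of 50 by fetal control level, the group at 30.3 CPM or more had 7 rises and 32 falls at 30 mg/kg/d PFO5DoA. The group of 6.25 to 30.2 CPM had 8 and 19, and the group of 1.02 to 6.07 CPM had 8 and 13. In the lowest group 19 of 50 were tested, with 8 rises and 1 fall, where a fall is hard to detect at this depth. The share of all genes that fell at each level was not worked out. The control libraries that made these groups include those the fold changes were measured against. That alone favours falls where the controls were high and rises where they were low. Whether this gradient goes beyond that, or is particular to the members, was therefore not tested.

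The largest fetal rise in terms of counts was that of ENSRNOG00000006675, a member picked for naming after its values were seen. Its rank by the maternal-to-fetal difference was 159 of 200. In the PFO5DoA series the 5 fetal control libraries held 635, 526, 642, 1249 and 735 CPM. The 4 libraries at 3 mg/kg/d held 28027, 15446, 17536 and 27218 CPM, all far above them. The log2 fold change was 4.85 (SE 0.38, edgeR adjusted p = 1.44e-08), and the fetal mean of 22057 ± 6492 (SD, n = 4) exceeded the 3956 ± 1409 (n = 5) of control maternal liver. The fetal libraries of 1 mg/kg/d held 6822, 9078 and 12431 CPM, and the log2 fold change was 3.62 (edgeR adjusted p = 2.01e-06). At 0.3 mg/kg/d they held 1379, 2037 and 2369 CPM, above every control, with a log2 fold change of 1.35 that missed the threshold (edgeR adjusted p = 0.426). The 2 libraries at 0.1 mg/kg/d held 686 and 1023 CPM, within the control range.

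The fetal mean of ENSRNOG00000006675 under PFO5DoA was not highest at the highest dose. At 10 mg/kg/d the fetal libraries held 21491, 16342, 49533 and 17936 CPM, 1 of them far above the others, and at 30 mg/kg/d 13276, 16451 and 7668. The mean at 30 mg/kg/d was 12465 ± 4447 (n = 3). Under PFO4DA the 6 fetal controls had a lowest of 334, a median of 553 and a highest of 961 CPM, and group means were 1705 ± 824 at 3, 4740 ± 1755 at 10, 11808 ± 600 at 30 and 15471 ± 3106 at 62.5 mg/kg/d (n = 4 each). Log2 fold changes were 1.52, 2.98, 4.28 and 4.69 (edgeR adjusted p 0.00343, 1.21e-08, 1.24e-11 and 1.04e-12). The fetal group at 62.5 mg/kg/d, at 12419 to 19515 CPM, lay above the maternal libraries of the same dams, at 6451 to 7832.

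In maternal liver ENSRNOG00000006675 rose under PFO5DoA too. Its 5 control libraries held 1996, 3813, 5599, 4981 and 3389 CPM, and the 4 libraries at 3 mg/kg/d held 17410, 15371, 25361 and 12260, with a log2 fold change of 2.15 (SE 0.31, edgeR adjusted p = 5.79e-05). The 10 mg/kg/d libraries held 17234 to 22842 CPM and those of 30 mg/kg/d 14313, 14756, 13209 and 5603, where the lowest just passed the highest control. The call at 1 mg/kg/d (log2 fold change 1.63, edgeR adjusted p = 0.0147) was lost without dose replicate 1 or 2 (adjusted p 0.0719 and 0.0678). Under PFO4DA the maternal mean was 7382 ± 630 at 62.5 mg/kg/d (n = 4) and 4897 ± 1420 in 6 controls, and the log2 fold change of 0.60 missed the threshold (edgeR adjusted p = 0.193). The difference between the chemicals in maternal liver was 2.23 at 3 (95% interval 1.48 to 2.99), 2.35 at 10 (1.60 to 3.11) and 1.14 at 30 mg/kg/d (0.39 to 1.88), with edgeR adjusted p of 2.07e-04, 5.32e-05 and 0.0271. The last of these was lost when PFO4DA replicate 3 or 4, PFO5DoA replicate 1, 2 or 3 of that dose or PFO5DoA control replicate 2 was left out (adjusted p 0.0520 to 0.0635).

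**Figure D4:**
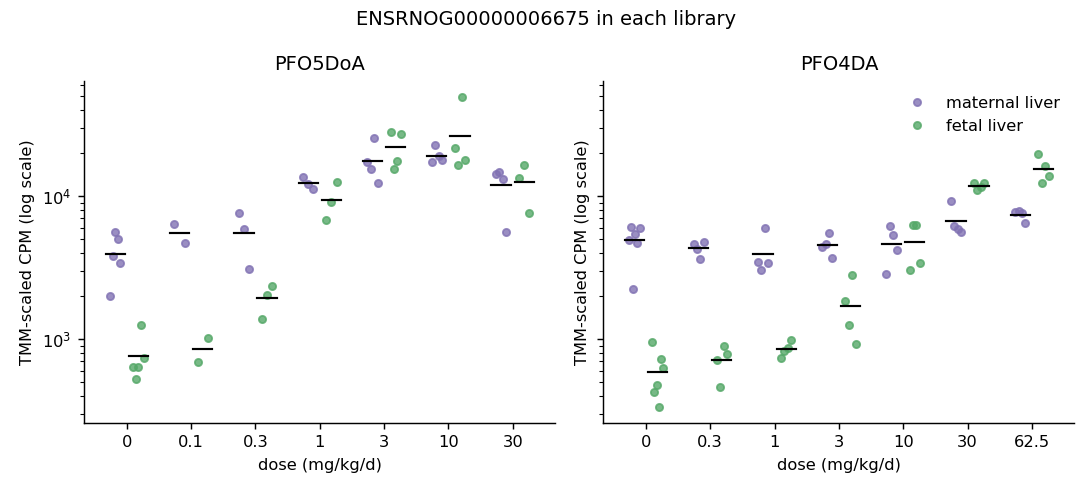
TMM-scaled CPM (log scale) of ENSRNOG00000006675 in each maternal and fetal library, by dose in mg/kg/d; points are libraries and bars are group means, and the livers were scaled separately. The fetal library was above the maternal library of its dam in no control dam, in 1 of 3 dams at 1 mg/kg/d, 3 of 4 at 3 and at 10 and 2 of 3 at 30 under PFO5DoA, and in 3 of 4 at 10 and 4 of 4 at 30 and 62.5 mg/kg/d under PFO4DA.

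This gene carried most of the change in the members' summed share of fetal counts. That share was 1.11% ± 0.10 (SD, n = 5) in PFO5DoA controls, 2.05% ± 0.49 at 1 (n = 3), 3.35% ± 0.58 at 3 (n = 4), 4.27% ± 1.33 at 10 (n = 4) and 2.59% ± 0.57 at 30 mg/kg/d (n = 3). ENSRNOG00000006675 alone went from 0.0784% to 2.85% between 0 and 10 mg/kg/d. Without it the members' share was 1.03% in controls and 1.43% at 10 mg/kg/d, a range of 0.952% to 1.14% against 1.27% to 1.52%, which did not overlap. Under PFO4DA the share went from 1.18% ± 0.22 (n = 6) to 3.10% ± 0.38 at 62.5 mg/kg/d (n = 4), and without that gene from 1.12% to 1.39%, where the ranges of 0.852% to 1.51% and 1.29% to 1.48% overlapped.

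The other named members were low in control fetal liver. ENSRNOG00000062471 held 1.98, 0.88, 0.10, 1.69 and 3.58 CPM in fetal PFO5DoA controls and 20.3, 43.9 and 19.4 with 30 mg/kg/d, and the log2 fold change was 4.02 (SE 0.67, edgeR adjusted p = 1.46e-04). The dosed libraries were all above the controls, though far under the 3517 CPM of maternal liver at that dose. They were also above the mean of 18.2 CPM in control maternal liver. ENSRNOG00000010725 had 4.29 ± 1.03 CPM in fetal controls (n = 5) and 5.04 ± 1.22 at 30 mg/kg/d (n = 3), with a log2 fold change of 0.19 that missed the threshold (edgeR adjusted p = 0.675). ENSRNOG00000010079 was called lower in fetal liver at 30 mg/kg/d (log2 fold change −5.62, edgeR adjusted p = 0.0268), but 1 control library, from dam 2278, held 39.9 CPM and the other 4 held 0.18 to 0.79. Without that library the log2 fold change was −1.19 (edgeR adjusted p = 0.35). The call was also lost without any of the 3 dosed libraries (adjusted p 0.0750 to 0.106).

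The 2 livers of the same dams were set side by side at 30 mg/kg/d PFO5DoA for the 169 members tested in both. Of these, 64 were called in both livers, 43 in maternal and 32 in fetal liver alone, and 30 in neither, or 37.9%, 25.4%, 18.9% and 17.8%. Of the 10201 genes tested in both livers, 16.7% were called in both, 23.6% and 13.9% in maternal and fetal liver alone, and 45.8% in neither. In both livers 42 members fell and 8 rose (24.9% and 4.73%), where 7.57% and 7.54% of all genes did. The 42 were 50% of the 84 maternal falls and 64.6% of the 65 fetal falls, and the 8 were 34.8% of the 23 maternal rises and 25.8% of the 31 fetal rises. Over all genes the falls in both were 37.1% and 47.7% of the lists, and the rises 37.9% and 51%. A further 10 fell in maternal and rose in fetal liver and 4 did the reverse, 8.28% of the members against 1.62% of all genes. The members were chosen for controls high in maternal and low in fetal liver, which favours a maternal fall with a fetal rise. All genes carry no such choice, so these shares are not a like comparison. Fetal rises had a median of −0.26 in maternal liver, with 10 of 31 above 0, where all 200 members had a median of −0.86 with 44 above 0.

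**Figure D5:**
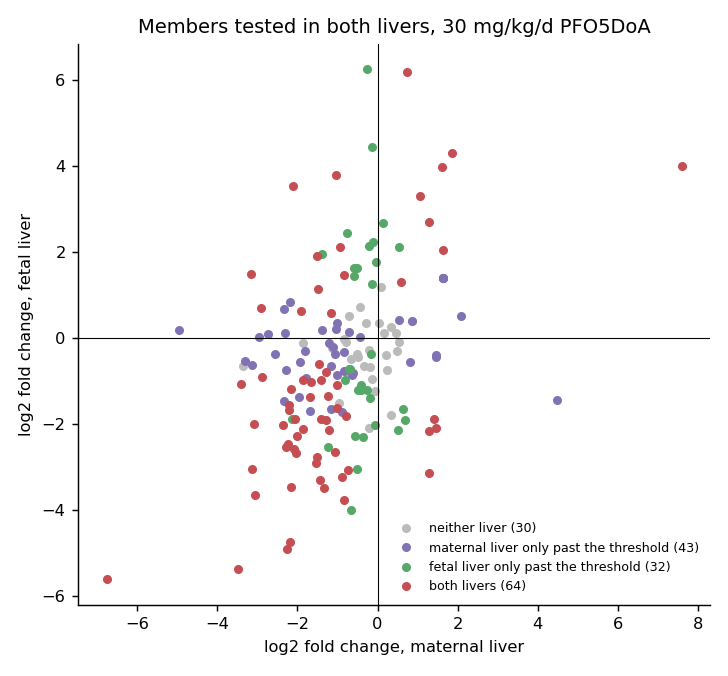
Log2 fold change in fetal liver (vertical) against maternal liver (horizontal) at 30 mg/kg/d PFO5DoA, for the 169 members tested in both; colours mark in which liver a member passed an adjusted p of 0.05. Most of the 64 called in both lie in the lower left, 42 of them falls in both livers.

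The gap between the livers that defined the members had its lowest mean at the top PFO5DoA dose. Its median over the members within a dam was 3.51 ± 0.29 log2 units (SD, n = 5) in controls, with dams from 3.10 to 3.83. It was 3.25 ± 0.11 at 10 mg/kg/d (n = 4) and 2.91 ± 0.18 at 30 mg/kg/d (n = 3), where dams ran from 2.77 to 3.12 and overlapped the lowest control. Under PFO4DA it was 3.63 ± 0.20 in controls (n = 6), 3.40 ± 0.013 at 0.3, 3.45 ± 0.12 at 1, 3.39 ± 0.14 at 3, 3.21 ± 0.12 at 10, 3.51 ± 0.12 at 30 and 3.48 ± 0.11 at 62.5 mg/kg/d (n = 4 each). Means below the control mean thus included those of 0.3 and 1 mg/kg/d PFO4DA, where no member was called in either liver. The controls of this gap chose the members, so no test is given.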

How the data were processed

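The members, gene lists and comparisons were chosen with earlier results of these data known. Per the submitters' processing notes, reads were aligned with STAR 2.7.8a to mRatBN7.2 in Partek Flow, and the authors deposited gene counts that are expected counts, since 16.9% (PFO5DoA) and 16.1% (PFO4DA) of values above 0 were not whole to within 1e-06. Counts were rounded here. Used libraries held 7133025 to 15254954 counts. Dam 2279 was left out by the rule, its shallower library holding 45504 counts. No library pair of a group was a duplicate (chi-square per degree of freedom at least 14.7).

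Each dose was tested against its controls with edgeR 4.0.16 in R 4.3.3 (filterByExpr, TMM, robust quasi-likelihood fit over all doses of 1 chemical and liver), with Benjamini-Hochberg adjustment over all genes tested and a threshold of 0.05. The chemicals were compared in maternal liver in 1 fit of both series. SE is the fold change over the root of F, and intervals are 1.96 SE. Levels are TMM-scaled CPM. Alternatives were DESeq2 1.42.0, no filter, a replicate block, the dam run as covariate, each dose alone, other choices of members, and each library left out. The fits were tested on simulated data.

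Named members came from the 12 largest maternal rises and falls at 30 mg/kg/d PFO5DoA that passed the threshold with 5 CPM or more on average in either group and every dosed library on 1 side of the control mean. With no symbols matched, only 2 IDs were named each way: the largest rise, the 2 largest falls, and the eleventh rise, picked after its values were seen. The 23 gene and marker lists planned could not be looked up. Dams are separate animals. The labels do not say whether dams were dosed together.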

Additional observations from a re-analysis of the deposited data

Results flagged for a closer look

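Outlying libraries were sought with Dixon's test, whose cut-off flags about 1 in 20 groups of normally spread values. CPM was not log-transformed and the groups share genes and libraries, so that rate need not hold here. Of 115 groups of 4 or more, 13 had 1 library far from the others. For ENSRNOG00000006675 these were maternal libraries of 2225 CPM (PFO4DA controls, lowest), 5965 CPM (1 mg/kg/d PFO4DA, highest), 9179 CPM (30 mg/kg/d PFO4DA, highest) and 5603 CPM (30 mg/kg/d PFO5DoA, lowest), and fetal libraries of 1249 CPM (PFO5DoA controls, highest) and 49533 CPM (10 mg/kg/d PFO5DoA, highest). For ENSRNOG00000010725 they were maternal libraries of 3092 CPM at 30 mg/kg/d PFO4DA and 1515 CPM at 3 mg/kg/d PFO5DoA, both highest. For ENSRNOG00000062471 they were maternal libraries of 36.7 CPM in PFO5DoA controls (highest) and 2159 CPM at 30 mg/kg/d PFO5DoA (lowest). The lowest library at 30 mg/kg/d PFO5DoA was that of dam 2288 for both rising genes. For ENSRNOG00000010079 they were fetal libraries of 0.636 CPM in PFO4DA controls, 39.9 CPM in PFO5DoA controls and 1.98 CPM at 10 mg/kg/d PFO5DoA, all highest. The 39.9 CPM library, from dam 2278, exceeded every other fetal control library more than 10-fold for 1 member only.

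The fold change under PFO5DoA less that under PFO4DA in maternal liver differed from 0 in an edgeR test of the difference for ENSRNOG00000006675 at 1 (1.94), 3 (2.23), 10 (2.35) and 30 mg/kg/d (1.14). The same held for ENSRNOG00000062471 at 3 (3.23), 10 (3.39) and 30 mg/kg/d (5.59), for ENSRNOG00000010725 at 10 (−3.35) and 30 mg/kg/d (−5.75), and for ENSRNOG00000010079 at 30 mg/kg/d (−6.18). The call for ENSRNOG00000062471 at 3 mg/kg/d was lost with no filter, with the replicate block (edgeR adjusted p 0.0793 and 0.0969) and with some libraries left out. That for ENSRNOG00000006675 at 1 mg/kg/d was lost with the block and without PFO4DA replicate 2 of that dose (edgeR adjusted p 0.0504 and 0.0613). Counts of members that differed were 2, 8, 37 and 88 at 1, 3, 10 and 30 mg/kg/d.

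At 30 mg/kg/d PFO5DoA 14 members were called in opposite directions in the livers, and in all 14 every dosed library lay on the opposite side of its control mean. The calls used these same libraries, so their sides add no separate support. The difference between the livers was not tested. In the dam left out by the rule, the shallow library taken as fetal had 9.63% of its 45504 counts in the members, where the other fetal control libraries had 0.928% to 1.56%.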

How the results depend on the processing

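Over 27 counts of members called and the alternatives run, 154 of 183 values were within 1.5 times the reported count. The 154 include reported counts of 0 that stayed 0. The counts at 30 mg/kg/d PFO5DoA were outside that 1.5-fold range once, in maternal liver. With the higher-numbered dams alone (the second dam run, a split made here), 81 members were called there. In that fit 19.6% of all genes were called, against 39.8% in the main fit, so calls dropped for genes at large too. The split by dam run was chosen after seeing the data. DESeq2 gave 8 and 32 in maternal liver at 1 and 3 mg/kg/d PFO5DoA, 1 and 21 at 30 and 62.5 mg/kg/d PFO4DA, 1 and 27 in fetal liver at 0.3 and 1 mg/kg/d PFO5DoA, 11 at 3 mg/kg/d PFO4DA, and 4 and 13 between the chemicals at 1 and 3 mg/kg/d. With each dose and its controls fitted alone, the maternal count was 0 at 1 mg/kg/d PFO5DoA (0.123% of all genes). Maternal counts were 1, 4 and 27 at 10, 30 and 62.5 mg/kg/d PFO4DA (0.0519%, 0.730% and 5.15%). Fetal counts were 10 at 1 mg/kg/d PFO5DoA (1.27%) and 3 and 15 at 3 and 10 mg/kg/d PFO4DA (0.142% and 1.47%). The maternal count for the highest PFO4DA dose was 7 with no low-count filter (0.98% of all genes) and 7 with the dam run as covariate (1.91%). Between the chemicals at 1 mg/kg/d the count was 1 with no filter (0.0704% of all genes) and 0 with members chosen on PFO5DoA controls. Other choices of members use the main fits, so the share of all genes stays as reported. Members chosen on the other chemical's controls gave 1 at 30 mg/kg/d PFO4DA in maternal liver. With 100 members, 1% were called at 1 mg/kg/d PFO5DoA and 2% at 62.5 mg/kg/d PFO4DA in maternal liver, where 200 gave 2.5% and 5.5%.

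The replicate numbers of the titles gave no sign of pairing: deviations of same-numbered libraries correlated at −0.613 to 0.706, with group averages of −0.0246 to 0.0309, and 7 of 22, 3 of 28, 8 of 21 and 11 of 28 libraries correlated best with their own number. With the replicate block the maternal counts were 0 at 1 mg/kg/d PFO5DoA (0.217% of all genes) and 4 at 62.5 mg/kg/d PFO4DA (1.68%). The fetal counts were 1 and 10 at 3 and 10 mg/kg/d PFO4DA (0.0985% and 1.35%). The count between the chemicals was 0 at 1 mg/kg/d (0.0822%). The block gave 124 in maternal and 99 in fetal liver for the top PFO5DoA dose, where 36.95% and 35.29% of all genes were called.

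With each library left out, maternal counts ran 0 to 6, 15 to 22, 39 to 56 and 111 to 124 at 1, 3, 10 and 30 mg/kg/d PFO5DoA, and 0 to 1 and 4 to 11 at 30 and 62.5 mg/kg/d PFO4DA. Fetal counts ran 9 to 20, 30 to 38, 51 to 59 and 74 to 95 under PFO5DoA from 1 mg/kg/d, and 3 to 7, 13 to 29, 35 to 42 and 43 to 54 under PFO4DA from 3 mg/kg/d. Between the chemicals they ran 0 to 4, 6 to 11, 24 to 44 and 74 to 94 from 1 mg/kg/d. The share of all genes was not worked out for fits with 1 library left out. Fold changes of named members that were called in the reported fit kept their sign under every alternative that gave a value. Those not called were not checked for this. Calls of named members were nonetheless lost in 15 values over the settings and in 38 with 1 library left out. The causes were not tested. Another assignment of life stage placed every library alike, so it gave no new value. Members under about 1 CPM in fetal liver are limited by depth.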
